A study of Mus musculus with 13 samples.

Results

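Tlr4, Irak3 and Itgam are 3 genes of innate immunity that were listed among the probe sets selected by the authors in the striatum of mice lacking STEP, a neuronal tyrosine phosphatase that is abundant in the striatum and is the product of Ptpn5. They are 3 of 4423 listed probe sets, each represented by 1, taken by gene symbol. Probe sets that the authors did not select carry no gene name here, so further probe sets of the 3 genes could not be identified. All values below are those of the 1 listed probe set of each gene. The study used naive male C57Bl/6J mice of 3 genotypes: wild type (4 arrays), heterozygous STEP KO, carrying 1 mutant allele (5 arrays), and homozygous STEP KO, carrying 2 (4 arrays). Wild-type mice were littermates. Each array held total RNA of dissected striatum, which receives the cortical input to the basal ganglia, and the knockout is not limited to a cell type in the labels. No source used here gives the age of the mice, the design of the mutant allele or any scan batch.

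The genes were selected on the same arrays that are described below. A probe set entered the authors' deposited table with a raw p of at most 0.0499905 and a fold of at least 1.20 against wild type, in the heterozygous or the homozygous comparison. Tlr4 and Itgam are listed through both comparisons and Irak3 through the homozygous comparison alone. In the authors' deposited table Tlr4 has a fold of 3.72 in the homozygous and 2.74 in the heterozygous comparison. The same table gives Itgam 1.38 and 1.21, and Irak3 1.46 in the homozygous comparison. The heterozygous value of Itgam, with a raw p of 0.0417 in the authors' deposited table, lies just inside both limits, while the heterozygous value of Irak3 lies outside them. Levels, differences and intervals of the 3 genes are therefore given as a description. Where they fall among the probe sets that passed the array-wide fit is stated only as background, and nothing is supported with it.

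Toll-like receptors are membrane proteins that recognise microbial molecules and signals of tissue damage. Tlr4 binds bacterial lipopolysaccharide together with Ly96 and passes the signal through adaptors and kinases of the Irak family to the transcription factor NF-kB. Irak3, also called IRAK-M, restrains this pathway, and Itgam, also called CD11b, is the alpha chain of an integrin that binds complement. In brain tissue free of infiltrating blood cells these genes are known mainly from microglia, the resident macrophages, and Tlr4 has also been described in other brain cells. In RNA of a whole tissue, more cells of a type and more RNA per cell cannot be told apart.

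The labels of the arrays had to be settled first, since the 2 deposited tables disagree on them. The value table gives the intensity of each sample accession, and the table of selected probe sets gives the same intensities rounded, under column headings. All 4423 values of each column matched 1 accession within 0.51 intensity units, but only 5 of 13 columns, the heterozygous ones, matched the accession of their own label. The columns headed homozygous held the arrays labelled wild type and those headed wild type held the arrays labelled homozygous, replicate by replicate. By accession, all 1027 deposited homozygous folds and all 3874 heterozygous folds lay within 0.05 log2 of the difference of mean log2 intensity. Ptpn5 also followed the accessions: its first probe set read 1452 to 1954 on the wild type, 760.69 to 1288 on the heterozygous and 364 to 585 on the homozygous arrays. Its second probe set read 3289.77 to 3882, 1924 to 3142 and 1016 to 1537 in the same order. The position of both probe sets relative to the deletion is unknown here. All values below follow the accessions, and the differences between homozygous and wild type turn their sign if the column headings are used.

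Array brightness differed and most probe sets shared the difference. The median intensity was 153.75 to 168.34 on the wild type arrays, 160.24 to 198.39 on the heterozygous and 143.44 to 200.81 on the homozygous ones. Array 2 was the brightest homozygous array and array 1 the dimmest. Of 45037 probe sets, 81.6% had a higher mean log2 value on the homozygous than on the wild type arrays, with a median difference of 0.092 log2. The heterozygous arrays were likewise higher for 81.6% of probe sets, with a median of 0.12 log2. Higher values of single genes are to be read against these shifts, and each difference is also given after every array was centred on its median.

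Tlr4, on chromosome 4, was lowest in wild type, higher in heterozygous and highest in homozygous arrays, with no overlap between the genotypes. The wild type arrays 1 to 4 had intensities of 30.8, 20.6, 23.4 and 20.4. On the heterozygous arrays 1 to 5 the intensities were 74.0, 54.8, 72.3, 58.5 and 63.2. The homozygous arrays 1 to 4 had 74.3, 100.92, 81.5 and 94.8. Every array with a mutant allele thus lay above every wild type array, whereas the highest heterozygous and the lowest homozygous array nearly touched. Mean intensities were 23.8 ± 4.86 (SD, n = 4), 64.6 ± 8.42 (SD, n = 5) and 87.9 ± 12.1 (SD, n = 4).

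As a ratio of mean intensities, Tlr4 was 3.70 times as high in homozygous as in wild type arrays and 2.71 times as high in heterozygous arrays. Homozygous arrays had 1.36 times the heterozygous mean. The wild type intensities of 20.4 to 30.8, on which the ratios to wild type rest, are dim, and the background in them was not tested. On the log2(intensity + 16) scale, which understates the change of dim probe sets, the difference from wild type was 1.39 ± 0.13 (SE) for homozygous and 1.02 ± 0.12 for heterozygous arrays. The homozygous arrays exceeded the heterozygous ones by 0.37 ± 0.12. The heterozygous arrays thus reached 63.6% of the homozygous difference in intensity, or 73.6% of it in log2. For the first and the second probe set of Ptpn5, which was lower in the mutants, the heterozygous arrays reached 53.4% and 45.2% of the difference in intensity.

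**Figure D1:**
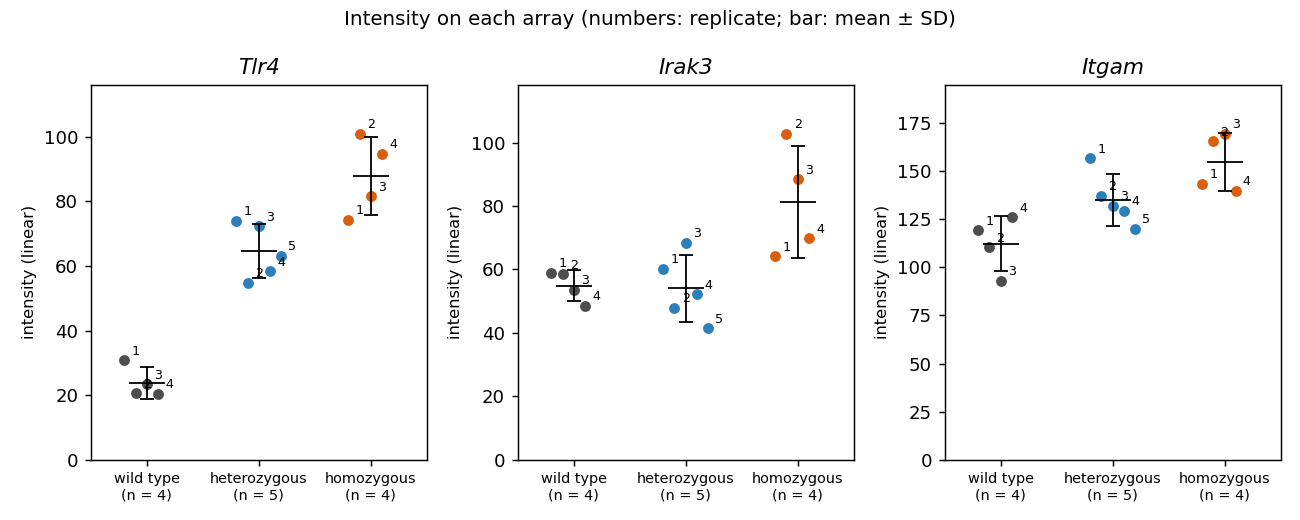
Intensity (linear scale, from 0) of Tlr4, Irak3 and Itgam on each array by genotype; points are arrays numbered by replicate, and bars are the mean ± SD of 4, 5 and 4 arrays. Tlr4 forms 3 separate levels, from 20.4 to 30.8, 54.8 to 74.0 and 74.3 to 100.92, while the heterozygous arrays overlap both other genotypes for Itgam and for Irak3.

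Within the homozygous group, Tlr4 followed the brightness of the arrays. Its order from array 1, the lowest, through 3 and 4 to 2, the highest, was also the order of the array medians. Relative to the median intensity of the array, Tlr4 was 0.122 to 0.187 in the wild type, 0.329 to 0.395 in the heterozygous and 0.475 to 0.544 in the homozygous arrays. The gap between heterozygous and homozygous arrays was wider on this scale. After centring, the SD of log2 values in the homozygous arrays went from 0.17 to 0.073, in the heterozygous ones from 0.15 to 0.081, and in the wild type from 0.17 to 0.16. Centred differences were 1.29 ± 0.085 (SE) for homozygous and 0.90 ± 0.081 for heterozygous against wild type.

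Across the array, 4 of 45037 probe sets passed the limma test between homozygous and wild type at an adjusted p under 0.05 (0.00888%), namely Tlr4, the 2 probe sets of Ptpn5 and Tmem114. Between heterozygous and wild type 1 passed (0.00222%), which was Tlr4. Between homozygous and heterozygous 3 passed (0.00666%), the 2 of Ptpn5 and 1 of Sult2b1. Since the 3 genes were chosen from these contrasts, nothing is read from which of them are among these probe sets. Tlr4 included, 10 probe sets of the array had a difference between homozygous and wild type of at least its size in either direction.

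**Figure D2:**
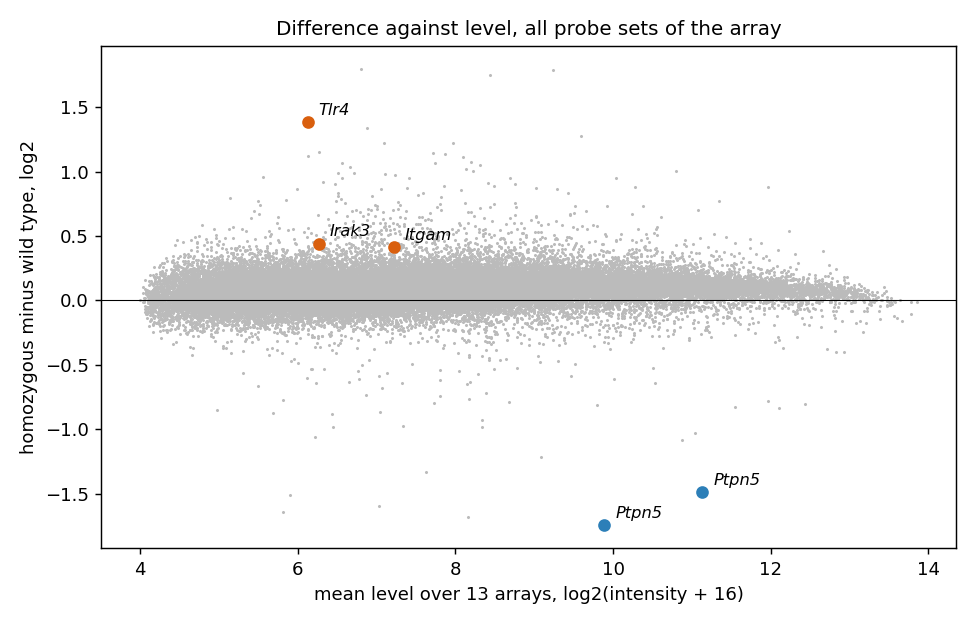
Difference between homozygous and wild type arrays (log2) against the mean level over 13 arrays, log2(intensity + 16), for 45037 probe sets in grey. Tlr4, at 1.39, stands apart from the bulk of probe sets, Irak3 (0.44) and Itgam (0.41) lie at its upper edge, and both Ptpn5 probe sets lie far below 0.

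Irak3, on chromosome 10, had its high values in the homozygous arrays, and the heterozygous arrays resembled the wild type. The table of RefSeq promoters (GRCm38.p6) holds 2 windows for it, each from 250 bases before to 50 after an annotated start site on the minus strand. They are shown, like that of Itgam below, because both genes were higher in the homozygous arrays. Capitals mark GAGGAA or its reverse complement, the core of the motif of PU.1, a transcription factor of macrophages and microglia.
Irak3 window 1, chr10:120201548-120201847, minus strand: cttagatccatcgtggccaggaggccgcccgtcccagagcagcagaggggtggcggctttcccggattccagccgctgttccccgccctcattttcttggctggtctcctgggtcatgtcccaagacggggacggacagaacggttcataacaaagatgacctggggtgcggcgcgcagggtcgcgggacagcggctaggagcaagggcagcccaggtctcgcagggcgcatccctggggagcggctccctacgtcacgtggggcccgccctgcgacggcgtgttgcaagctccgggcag
Irak3 window 2, chr10:120202081-120202380, minus strand: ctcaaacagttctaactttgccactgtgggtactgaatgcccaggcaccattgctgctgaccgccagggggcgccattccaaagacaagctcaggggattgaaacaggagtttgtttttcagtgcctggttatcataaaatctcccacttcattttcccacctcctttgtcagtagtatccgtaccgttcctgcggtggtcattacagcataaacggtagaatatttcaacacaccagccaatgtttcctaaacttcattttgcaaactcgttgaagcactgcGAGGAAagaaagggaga
The first window held no GAGGAA on either strand, and the second held 1, starting 33 bases after the start site. Of all 32851 promoter windows of 300 bases, 28.3% held this motif on either strand. No match to GGGA, any 2 bases and then TTCC, a form of the NF-kB motif that 1.47% of windows held, or to TGANTCA, the AP-1 motif that 7.81% held, was found on either strand. Such matches describe the letters of these windows only.

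The wild type arrays 1 to 4 had Irak3 intensities of 59.0, 58.5, 53.6 and 48.6. On the heterozygous arrays 1 to 5 these were 60.3, 48.0, 68.4, 52.2 and 41.5. The homozygous arrays 1 to 4 had 64.2, 102.76, 88.4 and 69.8. All homozygous arrays lay above all wild type arrays, led by arrays 2 and 3, and the heterozygous values spanned the whole wild type range and reached into the homozygous one. The means were 54.9 ± 4.88 (SD, n = 4), 54.1 ± 10.5 (SD, n = 5) and 81.3 ± 17.7 (SD, n = 4) for wild type, heterozygous and homozygous. The wild type and heterozygous means, neighbours in this order, differed by less than either spread.

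Homozygous arrays had 1.48 times the wild type mean and 1.503 times the heterozygous mean of Irak3. In log2 they were higher by 0.44 ± 0.14 (SE) than wild type and by 0.47 ± 0.13 than heterozygous arrays. Between heterozygous and wild type the difference was -0.03 ± 0.13, with a 95% interval from -0.30 to 0.25. After centring these became 0.35 ± 0.085 (SE), 0.49 ± 0.081 and -0.14 ± 0.081. Relative to the array median the heterozygous arrays had 0.255 to 0.345 and the homozygous ones 0.400 to 0.514, so that these 2 groups no longer overlapped. Without homozygous array 2, the brightest, the difference from wild type was 0.34 log2, and without homozygous array 1 it was 0.53.

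Itgam, on chromosome 7, had a smaller graded pattern. Its promoter window, with capitals as above, was the following.
Itgam, chr7:128062390-128062689, plus strand: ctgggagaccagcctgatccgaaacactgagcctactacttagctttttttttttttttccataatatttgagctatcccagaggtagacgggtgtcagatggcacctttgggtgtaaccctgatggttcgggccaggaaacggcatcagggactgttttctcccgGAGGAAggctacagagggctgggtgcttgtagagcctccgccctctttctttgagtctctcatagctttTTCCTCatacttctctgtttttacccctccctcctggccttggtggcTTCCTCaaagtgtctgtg
It held 3 matches to GAGGAA, counting both strands: 1 that starts 84 bases before the start site, 1 at 15 bases before it and 1 at 32 bases after it. It held no match to the NF-kB or AP-1 letters given above. No promoter of Tlr4 is shown, since no window for it was available.

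Itgam intensities were 119.28, 110.45, 93.0 and 126.03 on the wild type arrays 1 to 4. The heterozygous arrays 1 to 5 had 156.65, 137.24, 131.98, 129.47 and 120.1. The homozygous arrays 1 to 4 had 143.38, 165.54, 169.33 and 139.71. Homozygous arrays lay above all wild type arrays, but heterozygous arrays overlapped both. The means were 112.18 ± 14.3 (SD, n = 4) in the wild type, 135.09 ± 13.6 (SD, n = 5) in the heterozygous and 154.49 ± 15.1 (SD, n = 4) in the homozygous arrays. Each step between neighbouring means was of the size of about 1 to 2 SD.

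The homozygous mean of Itgam was 1.38 times and the heterozygous mean 1.20 times the wild type mean. In log2 the difference from wild type was 0.41 ± 0.12 (SE) for homozygous and 0.24 ± 0.12 for heterozygous arrays, and between the 2 mutant groups it was 0.17 ± 0.12. The 95% interval of the heterozygous difference ran from -0.0037 to 0.48 and that of the last from -0.069 to 0.42. Centring took the homozygous difference to 0.32 ± 0.099 (SE) and the heterozygous one to 0.13 ± 0.094. Relative to the array median the wild type arrays had 0.605 to 0.820 and the homozygous ones 0.801 to 0.9996, so that wild type array 4 then overlapped homozygous array 4. Itgam and Ptpn5 both lie on chromosome 7, with 818 protein-coding genes as the distance between them in the RefSeq gene order.

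**Figure D3:**
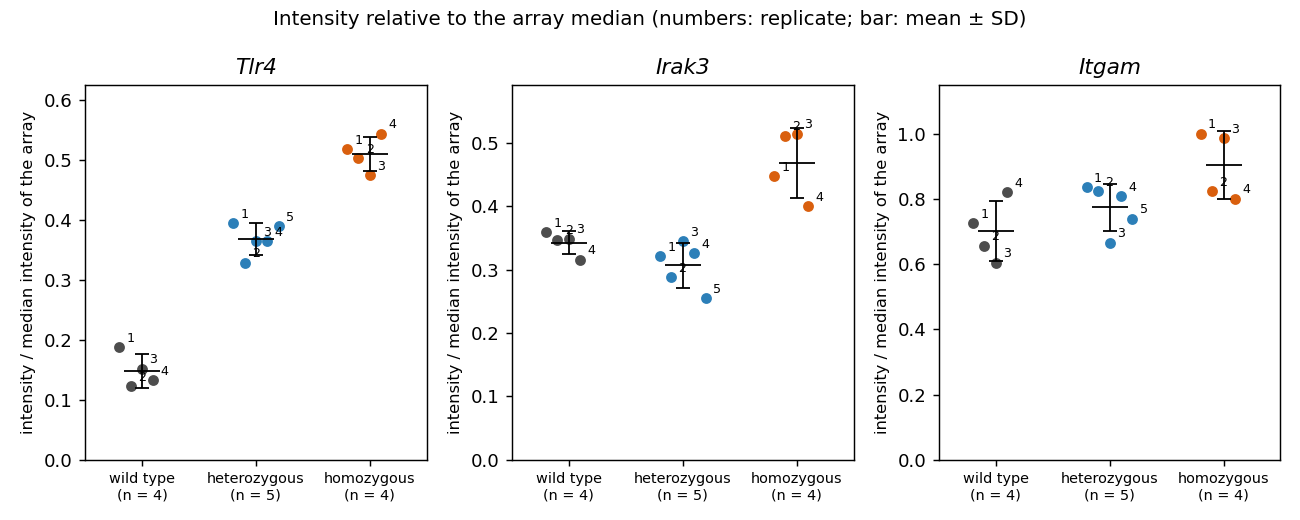
The same arrays with each intensity divided by the median intensity of its array (axes from 0; points are arrays numbered by replicate, bars the mean ± SD). Tlr4 keeps 3 separate levels, Irak3 separates homozygous (0.400 to 0.514) from heterozygous arrays (0.255 to 0.345), and Itgam overlaps between wild type and homozygous.

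All 3 genes were higher in every homozygous array than in every wild type array, a separation that 1.3% of all probe sets had in the same direction. In the heterozygous against wild type comparison only Tlr4 of the 3 separated upward, against 6.55% of probe sets. Between homozygous and heterozygous arrays again only Tlr4 did so, against 0.0888%. After centring, 2 of the 3 separated homozygous from wild type (not Itgam), which 1% of all probe sets did upward. Tlr4 and Irak3 then separated homozygous from heterozygous, against 0.604% of probe sets, and Tlr4 alone separated heterozygous from wild type, against 1.56%. The same wild type arrays serve in both comparisons with the mutant groups, and the authors' selection used these contrasts, so nothing is read from these counts. The heterozygous mean lay between the other 2 for Tlr4 and Itgam, at 63.6% and 54.1% of the homozygous difference in intensity, and near the wild type mean for Irak3. Whether these positions differ between the genes was not tested.

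The other genes of the Toll-like receptor pathway could be examined only where the authors' table lists them, since the remaining probe sets carry no gene name in the files. Of 98 genes in 9 lists of receptors, co-receptors, adaptors, inhibitors, transcription factors, inflammatory and interferon targets, integrins and complement, 12 were listed, 9 of them besides the 3 genes above. The count of 12 was not tested against the whole table, which lists 4423 probe sets, beside 45037 on the array without controls. It includes the 3 genes, which were chosen from the table, so nothing is read from it. Of all probe sets, 81.6% were higher in each mutant group than in wild type, and 37.7% higher in homozygous than in heterozygous arrays. All 9 genes had higher mean values in both mutant groups than in wild type, and 3 of the 9 were higher in homozygous than in heterozygous arrays. None passed the limma test with array-wide adjustment in any comparison, and 3, 6 and 1 of the 9 had an unadjusted p under 0.05 for homozygous against wild type, heterozygous against wild type and homozygous against heterozygous. Over the whole array these shares were 3.02%, 11% and 2.66%. Their median difference was 0.17 log2 for homozygous and 0.28 for heterozygous against wild type, beside 0.19 and 0.31 over all 4423 listed probe sets and 0.092 and 0.12 over the array. The table was selected on these mice, with a raw p of at most 0.0499905 against wild type in at least 1 comparison. The counts of unadjusted p were thus largely set by the selection and cannot be read against the array shares. The directions and medians are likewise no independent evidence.

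Among receptors, 2 of 12 genes were listed. Tlr3, which senses double-stranded RNA, had a wild type mean intensity of 166.57 ± 18.5 (SD, n = 4), a heterozygous mean of 218.47 ± 33.6 (SD, n = 5) and a homozygous mean of 190.11 ± 33.2 (SD, n = 4), so that its highest mean was heterozygous. Its difference from wild type was 0.36 ± 0.13 log2 (SE, limma adjusted p = 0.392) in heterozygous and 0.17 ± 0.14 (adjusted p = 0.908) in homozygous arrays. Of 6 genes for lipopolysaccharide binding 2 were listed. Ly96, the partner of Tlr4 at the cell surface, differed from wild type by 0.15 log2 in homozygous and 0.28 in heterozygous arrays, and Lbp, which carries lipopolysaccharide in serum, by 0.17 and 0.26. Neither had the step that Tlr4 had between the mutant groups, since both were lower in homozygous than in heterozygous arrays, by -0.13 and -0.086 log2. Tlr3, Ly96 and Lbp were listed through the heterozygous comparison alone, which favours a higher heterozygous than homozygous mean, and Tlr4 through both comparisons. The difference of Ly96 and Lbp from Tlr4 was not tested.

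Of 18 adaptors and kinases, 2 were listed, Traf3, a ubiquitin ligase of the interferon branch, and Ikbkg, the regulatory subunit of the kinase complex that frees NF-kB. Traf3 differed from wild type by 0.18 log2 in homozygous and 0.38 in heterozygous arrays, and Ikbkg by 0.17 and 0.28. Among 10 inhibitors 4 were listed, Irak3 among them, and the homozygous minus wild type median of the 4 was 0.36 log2. Trim30a, which restrains NF-kB signalling in mouse cells, had mean intensities of 84.3 ± 22.9 (SD, n = 4) in wild type, 96.3 ± 22.0 (SD, n = 5) in heterozygous and 142.87 ± 55.6 (SD, n = 4) in homozygous arrays. Its differences were 0.62 ± 0.21 log2 (SE, limma adjusted p = 0.908) for homozygous and 0.17 ± 0.20 for heterozygous against wild type. Its mean was highest in the homozygous group, as for Irak3. Both genes were listed through the homozygous comparison alone, which favours such a pattern. The homozygous arrays of Trim30a ran from 75.3 to 204 and overlapped the wild type range of 53.0 to 107.75. Nfkbia, the inhibitor that holds NF-kB in the cytoplasm, differed by 0.27 and 0.21 log2 for homozygous and heterozygous, and Tollip, an adaptor that dampens Irak activity, by 0.082 and 0.28. After centring the homozygous difference of Tollip turned to -0.0098. Nfkbia was listed through the homozygous comparison alone, and Traf3, Ikbkg and Tollip through the heterozygous one alone. The larger difference of each in that comparison is therefore favoured by the selection.

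Of 15 inflammatory targets only Ptgs2 was listed, the inducible cyclooxygenase, which neurons also transcribe on activity. It differed from wild type by 0.43 ± 0.17 log2 (SE) in homozygous and 0.43 ± 0.17 in heterozygous arrays (limma adjusted p = 0.908 and 0.401). None of 10 NF-kB and interferon regulatory factors, 12 interferon-stimulated genes and 9 complement genes was listed, and Itgam was the 1 of 7 genes of the beta2 integrin list. Being unlisted means only that a gene did not meet the authors' limits or is not named there.

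**Figure D4:**
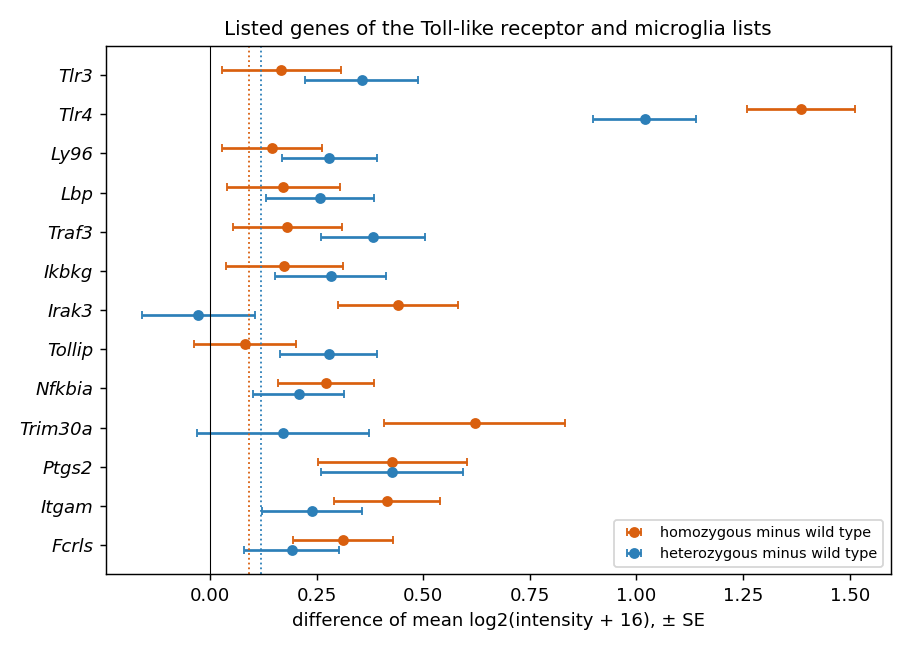
Differences of mean log2(intensity + 16) from wild type, ± SE, for the listed genes of the Toll-like receptor, inflammatory, integrin and microglia lists, homozygous in orange and heterozygous in blue; dotted lines are the medians of all probe sets (0.092 and 0.12). Tlr4 lies at 1.39 and 1.02 and no other gene shown exceeds 0.62.

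Markers of microglia were represented by 2 of 20 genes, Itgam and Fcrls, an Fc receptor-like gene of microglia. Fcrls had 397.25 ± 13.5 (SD, n = 4) in wild type, 456.00 ± 15.7 (SD, n = 5) in heterozygous and 500.25 ± 65.7 (SD, n = 4) in homozygous arrays. Against wild type, homozygous arrays differed by 0.31 ± 0.12 log2 (SE, limma adjusted p = 0.908) and heterozygous ones by 0.19 ± 0.11 (adjusted p = 0.49). The summed intensity of Itgam and Fcrls was 502.15 to 516.89 in wild type, 568.22 to 609.21 in heterozygous and 570.47 to 730.33 in homozygous arrays, with neither gene at 0 on any array. Every mutant array lay above every wild type array in this sum, and the mutant groups overlapped. As a ratio to the array median the sum was 3.07 to 3.29 in wild type, 2.99 to 3.80 in heterozygous and 3.64 to 3.98 in homozygous arrays, so that heterozygous and wild type arrays then overlapped. Single probe sets separated upward from wild type in 1.3% of cases for homozygous and 6.55% for heterozygous arrays. Itgam and Fcrls were both listed through the homozygous comparison with wild type, and the unlisted markers could not be looked up. The selection thus favoured a separation of this sum, which cannot be read against these shares. The part of this sum in the values of Tlr4 and Irak3 was not tested.

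Other innate immune genes were picked from the listed gene titles after their values were seen, so their values stand as a description. Pycard, the adaptor of inflammasomes, lies 2 protein-coding genes from Itgam and had a mean intensity of 196.92 ± 2.90 (SD, n = 4) in wild type, 223.86 ± 12.5 (SD, n = 5) in heterozygous and 249.58 ± 31.7 (SD, n = 4) in homozygous arrays. Mpeg1, a pore-forming protein of macrophages, differed from wild type by 0.42 log2 in homozygous and 0.31 in heterozygous arrays. Il1rap, the shared subunit of interleukin-1 family receptors, differed by 0.30 and 0.37, and Ifngr2, a subunit of the interferon gamma receptor, by 0.33 and 0.31. Fcgr2b, an inhibitory Fc receptor, had 0.31 and 0.10. Cfp, which stabilises the alternative complement convertase, had 0.15 and 0.33, and Cd200, a neuronal ligand that restrains microglia, had 0.29 and 0.36. None of these 7 reached 0.5 log2, and all were positive in both mutant groups, as were most probe sets of the array. Being picked, they do not stand for all listed innate genes. S100a8 and S100a9, given below, had negative log2 differences in both mutant groups. The heterozygous value of Fcgr2b turned to -0.012 after centring.

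Markers of other cells varied between single arrays and, in part, between groups. Of 9 genes of border and infiltrating myeloid cells, S100a8 and S100a9, which neutrophils hold in abundance, were listed. Their summed intensity was 147.43 to 1074.89 in wild type, 60.1 to 115.84 in heterozygous and 65.2 to 1687.29 in homozygous arrays. The highest values were on wild type array 2 and homozygous array 4. Wild type arrays 1, 3 and 4 had 147.43, 152.46 and 186.38, above every heterozygous array and homozygous arrays 1 to 3. Against wild type, S100a8 differed by -1.38 ± 0.62 log2 (SE) in heterozygous and -0.58 ± 0.65 in homozygous arrays. For S100a9 these were -1.16 ± 0.48 and -0.31 ± 0.51. Both genes were listed through the heterozygous comparison. Alas2, the 1 of 4 red blood cell genes that was listed, was 781.52 on wild type array 2 and 97.9 on homozygous array 4. On these 2 arrays Tlr4 was 20.6 and 94.8, and the part of these cells in its values was not tested.

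Tagln, which binds actin in smooth muscle cells and was the 1 listed of 12 vessel markers, had 613.55 and 635.44 on homozygous arrays 2 and 3, against 309.61 and 336.7 on arrays 1 and 4 and at most 304.77 elsewhere. Irak3 was also highest on homozygous arrays 2 and 3, and its relation to Tagln was not tested. Of 10 astrocyte markers Gfap and Aldoc were listed, with homozygous minus wild type differences of -0.47 and 0.20 log2. Their summed intensity ran from 1082.87 to 1297 in wild type, 1237 to 1449 in heterozygous and 834.72 to 1543 in homozygous arrays. Of 9 cortical neuron markers 5 were listed, with sums of 799.2 to 2463 in wild type, 2446 to 5208 in heterozygous and 997.34 to 2882 in homozygous arrays. Slc17a7, Rprm and Tbr1 were highest in the heterozygous group, by 1.43, 1.31 and 1.09 log2 over wild type, while Tshz2 differed from wild type by 0.88 log2 in homozygous and 0.54 in heterozygous arrays, and Rasgrf2 by 0.73 and 0.68. All 5 had a higher mean in heterozygous than in wild type arrays, as did 81.6% of all probe sets. Slc17a7, Rprm and Tbr1 were listed through the heterozygous comparison alone and Tshz2 through the homozygous one alone, which favours these patterns. No gene of these marker lists was at 0 on any array, and their part in the results was not tested. None of 12 markers of striatal projection neurons and none of 8 of oligodendrocytes was listed, so the striatal label could not be checked against them.

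The listed probe sets closest to Tlr4 in pattern were found by Pearson's r of log2 values over the 13 arrays, which share genotype groups and array brightness. Ccnb2, a mitotic cyclin, had r = 0.915, Pitpnm3 0.898, Morc4 0.864, Cdkn1a, a cell cycle inhibitor, 0.855 and Cdyl2 0.854. Pitpnm3 had means of 526.99, 793.34 and 888.73 in wild type, heterozygous and homozygous arrays, with the heterozygous mean between the others as for Tlr4. The lowest r belonged to Ptpn5, at -0.780 and -0.760, followed by Erbb3 (-0.705), Reg1 (-0.664) and Ccdc123 (-0.641). Centring took the values of Ptpn5 to -0.903 and -0.893.

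For Irak3 the closest were Fgf3, with r = 0.948 and 0.929 for its 2 probe sets, Myo3b (0.943), Tmem106a (0.938) and P2ry1, a purine receptor (0.921). Myo3b had means of 167.30, 167.92 and 274.37 in wild type, heterozygous and homozygous arrays, so that it too was high in the homozygous group, with nearly equal means in the others. The lowest were Adcy1 (-0.895), Sult2b1 (-0.857), Cplx3 (-0.779), Fxyd7 (-0.766) and Ipcef1 (-0.753).

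For Itgam the closest were Rnd3, with 0.937 and 0.930, Homer1, a postsynaptic scaffold (0.927), and the activity-regulated transcription factors Egr2 (0.897) and Nr4a3 (0.896). Egr2 had means of 334.74, 657.83 and 1195 in wild type, heterozygous and homozygous arrays, a step in the same order as Itgam but far larger. The lowest were both Ptpn5 probe sets (-0.599 and -0.594), Spp1 (-0.565), Adcy1 (-0.519) and Mesdc1 (-0.502).

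None of the 7 gene symbols taken as flanking Tlr4 on chromosome 4 was among the authors' selected probe sets. As above, being unlisted means only that a gene did not meet the authors' limits or is not named there. The nearest listed genes on either side in the RefSeq order were Orm1, 15 protein-coding genes away, with 0.26 log2 for homozygous against wild type, and Ptprd, 23 away, with -0.03. For Irak3 the nearest were Grip1, 2 genes away, with 0.25 log2, and Lemd3, 5 away, with 0.33. For Itgam they were Pycard, 2 away, with 0.31, and Tgfb1i1, 6 away, with 0.18. Zfp618, 19 genes from Tlr4, had 0.46. No listed gene lies nearer to Tlr4 than Orm1.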

How the data were processed

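Striatal RNA of 13 mice was measured on 1 Affymetrix array per mouse. PLIER, per the submitters' processing notes, gave the deposited intensity of each of 45101 probe sets. Scaling between arrays, array type and genome build: not given in the sources used here. Besides, the authors deposited a table of 4423 probe sets with rounded intensities, gene symbols and, per the file headers, the fold, the unadjusted p-value and the adjusted one of each mutant genotype against wild type. Samples were taken by accession.

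Here 64 control probe sets were left out and 45037 were turned into log2(intensity + 16). Limma 3.58.1 (R 4.3.3; lmFit, eBayes with trend, two-sided) modelled genotype alone over all 13 arrays, and Benjamini-Hochberg adjustment covered every probe set. The fit was tested on simulated data with independent noise for each probe set. These data held no brightness shift shared by the probe sets of an array, so the test says nothing about such shifts. Tlr4, Irak3, Itgam and the lists were chosen with earlier results of these data known, so the genes chosen are described without a test. A list gene stands for its brightest listed probe set. Named genes are the 3 chosen genes, Ptpn5, the 2 members of each list with the smallest p for homozygous against wild type, and the 5 listed probe sets of highest and of lowest correlation with each chosen gene. Tollip, Nfkbia, Slc17a7, Rprm, Tbr1, Tmem114, Sult2b1, the chromosomal neighbours and 7 further immune genes were added after their values were seen. A single gene symbol is deposited for 3581 probe sets, more than 1 for 49 and none for 793. Entrez IDs linked the 3 chosen genes to RefSeq (GRCm38.p6), used for chromosomes and gene order. The number of arrays limits the precision. Alternatives were other offsets, brighter probe sets, quantile normalization, median centring, a replicate block, only the compared groups, no trend, array weights, a threshold of 0.1, any probe set of a gene, column headings in place of accessions, and each array left out.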

Additional observations from a re-analysis of the deposited data

How the results depend on the processing

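The 3 genes gave 162 values under other offsets, scalings, the replicate block and each array left out. Of these, 158 stayed within 1 SD of the reported value, and the 4 that moved are those of Tlr4 with another offset. Leaving out an array cannot change the difference between the other 2 genotypes, so part of these values was fixed in advance. The SD is that of single arrays within a genotype, a wide measure for a change of group means. Nothing is thus read from the count of 158 of 162 values. The sign changed in 4, all of Irak3 for heterozygous minus wild type, reported as -0.03: it was 0.041 with the block and without heterozygous 5, 0.0020 without heterozygous 2 and 0.00010 without wild type 1. The block absorbs heterozygous 5, the only array of its number. With an offset of 1 Tlr4 differed from wild type by 1.85 log2 in homozygous and 1.41 in heterozygous arrays, and with 32 by 1.10 and 0.79, since a larger offset shrinks dim values. Under the column headings Tlr4 had -1.39 for homozygous minus wild type, -0.37 for heterozygous minus wild type and -1.02 for homozygous minus heterozygous, Irak3 -0.43, -0.47 and 0.040, and Itgam -0.42, -0.18 and -0.24, as the exchange of 2 groups implies. Leaving out each array in turn gave, in the same order of comparisons, 1.33 to 1.47, 0.98 to 1.10 and 0.31 to 0.43 for Tlr4. It gave 0.34 to 0.53, -0.098 to 0.041 and 0.37 to 0.56 for Irak3, and 0.34 to 0.47, 0.16 to 0.29 and 0.13 to 0.22 for Itgam.

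Counts over the array were less stable, and the cause was not tested. The counts of 4, 1 and 3 probe sets became 17, 6 and 12 with the replicate block. Fits of the compared groups alone gave 18 for homozygous against wild type and 12 for homozygous against heterozygous, and brighter probe sets alone gave 2 for the former. Array weights gave 8389, 4 and 5708, with a weight of 12 on homozygous array 3 and none above 2.91 on another. A threshold of 0.1 gave 2 for heterozygous against wild type. Leaving out arrays gave 3 to 12, 1 to 213 and 0 to 7. For homozygous against wild type the count was 12 without homozygous array 4 and 7 without homozygous 1 or heterozygous 5. For heterozygous against wild type it was 213 without heterozygous 4, 5 without homozygous 3, 4 without wild type 4, and 2 without heterozygous 5 or homozygous 4. For homozygous against heterozygous it was 7 without homozygous 1, 1 without heterozygous 1, and 0 by limma without homozygous 4, where 1870 probe sets had an unadjusted p under 0.05. Over all lists 1, 1 and 0 genes passed. With the block these were 2 (Tagln added), 2 (Rprm added) and 1 (Tbr1). Leaving out arrays gave 1 to 2, 1 to 2 and 0, adding Tagln without heterozygous 5 or homozygous 1 or 4, and Rprm without heterozygous 4 or homozygous 3.

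Of 12 same-numbered pairs of arrays, 2 had deviations correlated above 0.1 (range -0.448 to 0.186), and 0 of 13 arrays correlated best with their own number. The heterozygous array that is the only bearer of its number had no partner, so its result was fixed in advance. Deviations within groups of so few arrays cannot show whether the replicate numbers pair the mice, so no conclusion is drawn from these values. Tlr4 and Irak3 are dim: 23.5% and 26.2% of probe sets had a lower mean log2 signal over all 13 arrays. For Tlr4 this mean was 6.12, with the higher mutant arrays included, and the mean of the wild type arrays alone was 5.31. No detection call is used here, and the background behind these signals was not tested.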
